A study of Homo sapiens with 4 samples.

Results

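Desmosomes are spot-like junctions that tie the keratin filaments of neighboring epithelial cells together. Desmosomal cadherins (desmogleins and desmocollins) span the membrane and hold the cells to each other, plakoglobin and the plakophilins bind their tails in a plaque below the membrane, and desmoplakin links this plaque to the filaments. The mRNAs of 9 desmosome genes were examined in BEAS2B, a human cell line that was derived from bronchial epithelium and transformed with a virus. The members are *PKP2*, *PKP3* and *PKP4*, which encode plakophilins, *DSP* and *JUP*, which encode desmoplakin and plakoglobin, the cadherin genes *DSG2*, *DSC2* and *DSC3*, and *PERP*, which encodes a membrane protein of desmosomes. The set was chosen by function around *PKP2*, whose higher mRNA level after QKI knockdown was already known from these data. The *PKP2* difference is therefore described without a test, and the question is whether the other 8 members share it. The 9 are among 16708 genes listed in at least 1 library.

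RNA-Seq was done on 4 libraries. A pair of libraries, numbered replicate 1 and 2, came from QKI-knockdown cells (labelled sh-QKI), in which a retrovirus delivers the shRNA sh-Q3 against all isoforms of the RNA-binding protein QKI. The other pair, also numbered 1 and 2, came from control cells (labelled sh-Ctrl), in which it delivers an shRNA against luciferase. A single QKI shRNA was sequenced, so loss of QKI and other effects of that shRNA cannot be told apart. Separate cultures are not stated for replicate 1 and 2, so a p-value here sets the difference only against the scatter of these libraries, which could be technical. mRNA levels are given as RPKM, read counts that the authors scaled to gene length and to the size of the library.

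The shRNA sequence is shown because it defines the perturbation. Its sense strand matched *QKI* on the plus strand of hg19 at chr6:163956115-163956133, in the coding part of exon 4. Among the canonical mRNAs of the listed genes its full 19 bases matched *QKI* alone, and 0 of the 9 members. Shorter matches were not searched, so other targets of the shRNA were not tested.
sh-Q3 target in QKI: gaagagagcagttgaagaa

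QKI binds RNA at ACTAAC and ACTAAT (written as DNA), so the mRNA strand of each member was searched for these letters, with no overlap between the 2 motifs possible at one position. The canonical mRNA of *PKP2*, 4229 bases long with 2511 coding bases and a 3′ UTR of 1672 bases, held 0 matches. Of 1698 mRNAs within 10% of its length, 55.4% held at least 1. *PKP3*, *DSP* and *JUP* also held 0 matches, against 38.2%, 86.9% and 49.4% of mRNAs of like length. *DSG2* held 4, with 1 in the coding sequence and 3 in the 3′ UTR, and 71.9% of mRNAs of like length held at least 1. *PKP4* held 1, *PERP* 1, *DSC3* 1 and *DSC2* 3, where 58.7%, 54.7%, 78.4% and 90.8% of mRNAs of like length held at least 1. The sites shown are those of the members with measurable mRNA, 1 per gene and a second for *DSG2*, with the match in capitals. They lie at chr2:159477868-159477897 in exon 6 of *PKP4* (coding, plus strand), chr18:29104810-29104839 in exon 8 of *DSG2* (coding, plus strand), chr18:29128401-29128430 in exon 15 of *DSG2* (3′ UTR, plus strand) and chr6:138412948-138412977 in exon 3 of *PERP* (3′ UTR, minus strand), all in hg19. A match is a description of the letters and not a shown binding site. Introns and variants of the motif were not searched, although the authors report QKI sites in introns and binding to similar sequences in *NUMB* pre-mRNA. Finding 0 matches therefore does not show that a transcript lacks QKI sites.
PKP4 coding site: ttcataggatcaACTAACaaccatgtggtg
DSG2 coding site: acagatgctcaaACTAACgaaggaattgtg
DSG2 3′ UTR site: tagtgtgctcccACTAACtgtacagatcag
PERP 3′ UTR site: ttgtgtcttttcACTAATtacctatactat

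The libraries differed more by replicate number than by knockdown. Totals of 20571555 and 34862008 reads in QKI-knockdown libraries 1 and 2, and of 20052951 and 34706058 reads in control libraries 1 and 2, stood behind the RPKM values. The SD of the log2 difference between libraries over 11829 tested genes was 0.66 between the QKI-knockdown libraries and 0.81 between the control libraries, but 0.20 and 0.21 between QKI-knockdown and control within replicate 1 and 2. Values are therefore given per library, and the differences of the tested members also within each replicate number. *QKI* itself had 2.52 and 3.85 RPKM in QKI-knockdown cells, against 8.94 and 14.6 RPKM in control cells, a fold of 0.282 within replicate 1 and 0.264 within replicate 2. Of 5 epithelial markers, 4 reached 0.5 RPKM in at least 1 library, led by *KRT8* (226.6 and 109.3 RPKM in QKI-knockdown cells, 248.3 and 91.5 RPKM in control cells). *EPCAM* was at most 0.811 RPKM, and *KRT19* reached 0.5 RPKM in the replicate 1 libraries alone. *CDH1*, which encodes E-cadherin, the defining cadherin of epithelial adherens junctions, was between 0.0260 and 0.181 RPKM. None of 4 basal, 3 ciliated or secretory and 3 endothelial markers reached 0.5 RPKM, while *COL1A1* among 5 fibroblast markers and *CD14* among 3 leukocyte markers did. The summed epithelial markers, nearly all from *KRT8* and *KRT18*, were at 416.8 and 230.8 RPKM in QKI-knockdown cells, against 419.0 and 195.2 RPKM in control cells. The summed fibroblast markers were at 54.1 and 29.5 RPKM in QKI-knockdown cells, against 51.5 and 18.7 RPKM in control cells, and *CD14* was at 0.794 and 4.84 RPKM in QKI-knockdown cells, against 0.815 and 5.22 RPKM in control cells. These levels thus moved mostly with the replicate number, and their part in the results was not tested.

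*PKP2* encodes plakophilin 2, an armadillo-repeat protein that brings desmoplakin to the membrane and is the plakophilin of heart muscle as well as of simple epithelia. It lies on the minus strand of hg19 at chr12:32943679-33049732 (ENSG00000057294). Its mRNA was at 2.33 RPKM in QKI-knockdown replicate 1 and 5.91 RPKM in QKI-knockdown replicate 2, against 1.52 RPKM in control replicate 1 and 2.28 RPKM in control replicate 2. Both QKI-knockdown libraries were above both control libraries, although the lower QKI-knockdown value and the higher control value were next to each other. The means were 4.12 ± 2.53 RPKM in QKI-knockdown cells and 1.90 ± 0.534 RPKM in control cells (SD, n = 2 each), a fold of 2.17. In bulk RNA, a change in the number of cells that express a gene and a change in its mRNA per cell cannot be told apart.

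Within the replicate numbers the size of the *PKP2* difference was unequal. The fold was 1.53 in replicate 1, from 474 against 302 reads, and 2.60 in replicate 2, from 2039 against 782 reads. These reads were recovered from the spacing of the RPKM values, as the smallest whole numbers that give those values. The 95% intervals of the folds, exact binomial and for counting error only, were 1.32 to 1.77 in replicate 1 and 2.39 to 2.82 in replicate 2. The authors' gene length for *PKP2* is 9898 bases, longer than the mRNA, and recovered reads summed over genes are 1.35 to 1.53 times the library totals. Some reads may therefore have been counted more than once. With the reads reduced in proportion to the length of the canonical mRNA, the intervals were 1.22 to 1.93 and 2.29 to 2.95. All these intervals leave out the scatter between libraries. For *PKP2* they describe a difference that chose the set and are not a test of it. On the log2(RPKM + 0.5) scale, which understates changes of low genes, the differences were 0.48 and 1.21, and 1.20% of the tested genes had differences at least as far apart between the replicate numbers.

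**Figure D1:**
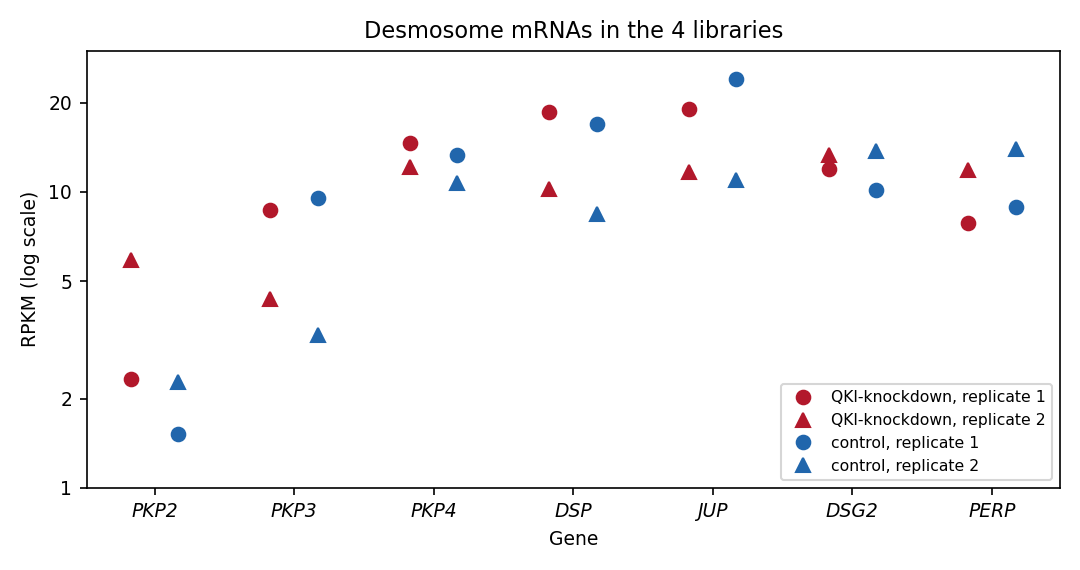
RPKM (y axis, log scale) of 7 desmosome genes (x axis) in each of the 4 libraries, with QKI-knockdown libraries in red, control libraries in blue, replicate 1 as circles and replicate 2 as triangles. *PKP2* is the gene with red points (2.33 and 5.91 RPKM) above both blue points (1.52 and 2.28 RPKM), while *DSC2* and *DSC3* are left out because they were at or near 0.

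The other plakophilins did not share a difference of this size. *PKP3*, which encodes a plakophilin found in most layers of stratified epithelia and in simple epithelia (chr11:392614-404908), was at 8.71 and 4.34 RPKM in QKI-knockdown replicates 1 and 2, against 9.52 and 3.28 RPKM in control replicates 1 and 2. The groups overlapped, and the fold was 0.915 (0.809 to 1.04) within replicate 1 and 1.32 (1.14 to 1.53) within replicate 2, in opposite directions. *PKP4*, which encodes a relative of the plakophilins that also resides in adherens junctions (chr2:159313464-159539391), was at 14.7 and 12.1 RPKM in QKI-knockdown cells, against 13.4 and 10.7 RPKM in control cells. It was slightly higher within both numbers, with folds of 1.10 (1.02 to 1.19) and 1.13 (1.06 to 1.20). The intervals in parentheses, here and for the genes that follow, are at the 95% level with reads reduced by length where the authors' length exceeds the mRNA. *PKP1*, a plakophilin gene of stratified epithelia that is not among the 9, was at 0.396 and 0.191 RPKM in QKI-knockdown cells, against 0.384 and 0.183 RPKM in control cells.

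The make-up of the plakophilin mRNAs was compared next. *PKP2* held 8.92% of the summed RPKM of *PKP1* to *PKP4* in QKI-knockdown replicate 1, against 6.14% in control replicate 1. In replicate 2 it held 26.2% in QKI-knockdown cells, against 13.8% in control cells. *PKP4* was the most abundant of the 4 in every library, with 56.2% and 53.7% in QKI-knockdown cells, against 53.9% and 65.2% in control cells. *PKP2* passed *PKP3* in QKI-knockdown replicate 2 alone, where *PKP3* held 19.2%. Without *PKP4*, *PKP2* held 20.4% in QKI-knockdown cells against 13.3% in control cells in replicate 1, and 56.6% against 39.7% in replicate 2. Shares between genes rest on the authors' gene lengths, which exceed the canonical mRNAs of *PKP2*, *PKP3* and *PKP4* by unequal factors. All these shares contain the *PKP2* difference that chose the set and are given as a description.

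**Figure D2:**
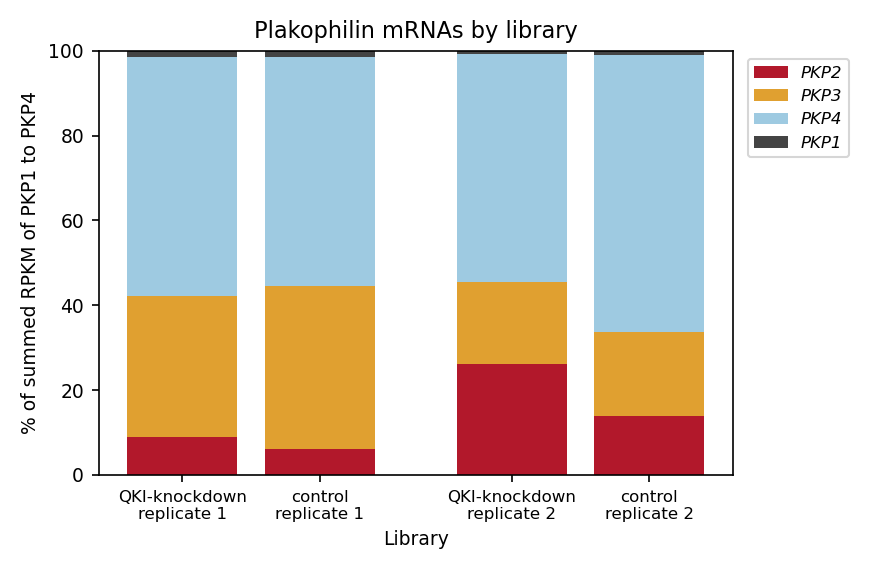
Share of each plakophilin gene (y axis, % of the summed RPKM of *PKP1* to *PKP4*) in each library (x axis), paired by replicate number. The red part, *PKP2*, is 8.92% and 26.2% in the QKI-knockdown libraries, against 6.14% and 13.8% in the control libraries.

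The remaining plaque genes encode the proteins to which plakophilins bind. *DSP* (chr6:7541571-7586947) encodes desmoplakin, the link to keratin filaments, and was at 18.7 and 10.2 RPKM in QKI-knockdown replicates 1 and 2, against 16.9 and 8.42 RPKM in control replicates 1 and 2. It was higher within both numbers, by 1.10-fold (1.05 to 1.16) and 1.21-fold (1.15 to 1.27). The groups overlapped, but replicate 1 was 2.01-fold above replicate 2 in control cells and 1.83-fold in QKI-knockdown cells. Overlap therefore shows little about a difference of this size. *JUP* (chr17:39910856-39943183) encodes plakoglobin, which serves both desmosomes and adherens junctions. It was at 19.1 and 11.6 RPKM in QKI-knockdown cells, against 24.0 and 10.97 RPKM in control cells. Its direction was opposite within the numbers, with folds of 0.797 (0.742 to 0.857) and 1.06 (0.983 to 1.14), and the groups overlapped.

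*DSG2* was the only listed desmosomal cadherin gene with a level above 1 RPKM. It encodes desmoglein 2, the desmoglein of simple epithelia (chr18:29078140-29128971), and was at 11.98 and 13.3 RPKM in QKI-knockdown cells, against 10.1 and 13.8 RPKM in control cells. The folds were 1.18 (1.09 to 1.28) within replicate 1 and 0.963 (0.912 to 1.02) within replicate 2, again in opposite directions and with overlapping groups. The desmocollin genes, whose products pair with desmogleins, had few or no reads. *DSC2* (chr18:28638806-28682485) had 0 reads in both QKI-knockdown libraries, against 3 reads in control replicate 1 and 0 in control replicate 2. A count of 0 allows up to 3 reads, which is 0.0441 and 0.0260 RPKM in the QKI-knockdown libraries. *DSC3* (chr18:28569331-28622781) had 0 reads in both QKI-knockdown libraries, against 15 reads in control replicate 1 and 1 in control replicate 2, so nearly all of its reads came from a single library. Both control libraries were above the QKI-knockdown libraries for *DSC3*, but control replicate 2 was within the 3 reads that a count of 0 allows. A change of *DSC2* was not detectable at this depth, and neither gene entered the test. Where a gene has so few reads, the true counts may be a whole multiple of those recovered.

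*PERP* (chr6:138409642-138428556), which encodes a tetraspan membrane protein of desmosomes and is a p53 and p63 target, was the only tested member lower within both numbers. It was at 7.88 and 11.8 RPKM in QKI-knockdown cells, against 8.92 and 14.0 RPKM in control cells, with folds of 0.883 (0.789 to 0.987) and 0.846 (0.790 to 0.906). The groups overlapped.

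**Figure D3:**
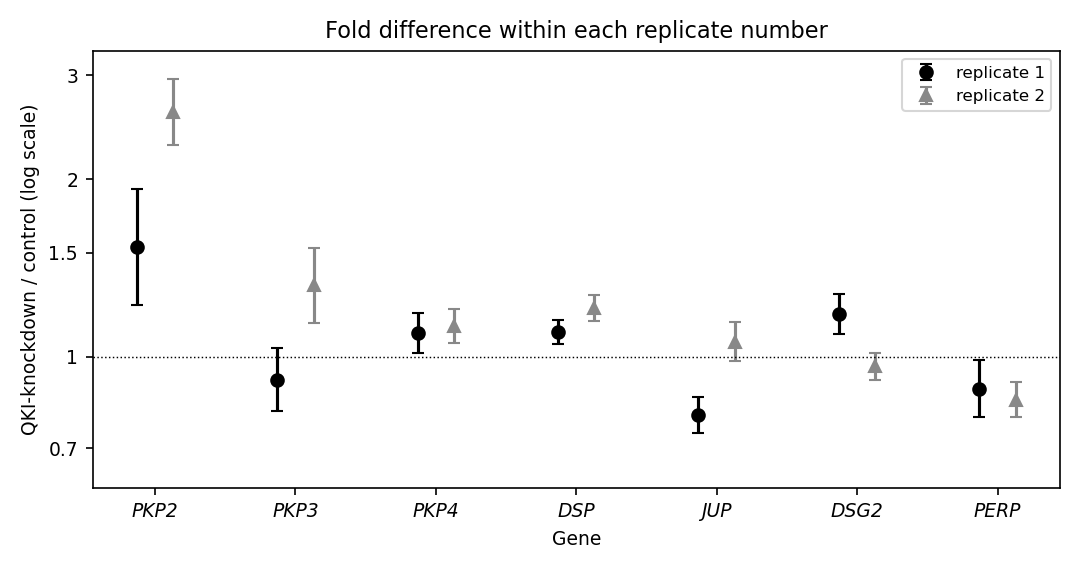
Fold of QKI-knockdown over control (y axis, log scale, dotted line at 1) for each gene (x axis) within replicate 1 (black circles) and replicate 2 (gray triangles), with 95% exact binomial intervals that cover counting error only. *PKP2* is at 1.53 and 2.60, and the other 6 genes lie between 0.797 and 1.32.

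Across the 4 libraries the 9 members ordered, by mean RPKM, as *JUP* (16.4), *DSP* (13.6), *PKP4* (12.7), *DSG2* (12.3), *PERP* (10.6), *PKP3* (6.46), *PKP2* (3.01), *DSC3* (0.0278) and *DSC2* (0.0113). Each gene's range over the libraries overlapped that of the next one down, except that *PKP2* was above *DSC3* throughout. RPKM corrects for gene length only as far as the authors' lengths are right, and those for *PKP2*, *PKP3*, *PKP4*, *DSP* and *JUP* exceed the canonical mRNA.

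The test was limma on log2(RPKM + 0.5). It covered 11829 genes whose mean reached 0.5 RPKM, among them 7 of the 9 members. limma called 0 of the 6 tested members other than *PKP2*, where it called 0.0% of all tested genes. *QKI* itself was not called either (log2 fold change -1.72, limma adjusted p = 1.00, and 3.16e-33 with the replicate number in the fit), so a count of 0 from the fit without that number shows little about smaller differences. At an unadjusted p under 0.05 it gave 0 of the 6, where it gave 0.11% of all genes, and voom, a count-based fit of the recovered reads, called 0 as well. The log2 fold changes were 0.12 for *PKP3* (standard error 0.62), 0.15 for *PKP4* (0.28), 0.20 for *DSP* (0.50), -0.12 for *JUP* (0.50), 0.09 for *DSG2* (0.28) and -0.20 for *PERP* (0.37), each with a limma adjusted p of 1.00. With the replicate number as a term of the fit, limma called 0.854% of all genes and again 0 of the 6, with standard errors between 0.120 and 0.135. The log2 fold change of *PKP2* was 0.85 (standard error 0.49, and 0.148 with the replicate number in the fit), given as a description and not as a test. It was 0.26 without QKI-knockdown replicate 2 and 1.44 without QKI-knockdown replicate 1.

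Counted by direction, 2 of the 6 were higher within both numbers (*PKP4* and *DSP*), where 31.7% of all tested genes were. *PERP*, 1 of the 6, was lower within both, where 16.6% were, and 3 of 6 moved in opposite directions, where 51.7% did. On the log2(RPKM + 0.5) scale, 0 of the 6 were over 2-fold higher within replicate 1, where 0.0592% of all tested genes were, and 0 of the 6 within replicate 2, where 0.101% were. *PKP2* was over 2-fold higher within replicate 2, a value that the choice of the set had used, so nothing is read from it. The median log2 fold change of the 6 was 0.10 (0.00 within replicate 1 and 0.12 within replicate 2), against 0.03 over all tested genes (0.02 and 0.05). With *DSC2* and *DSC3* included, whose values near 0 rest on the pseudocount, the median of the 8 was 0.01. Both QKI-knockdown libraries were above both control libraries for 5.71% of tested genes, and below them for 2.89%. Among the 7 tested members, *PKP2* was above and 0 were below. The set was chosen with the *PKP2* rise known, so nothing is read from its place.

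**Figure D4:**
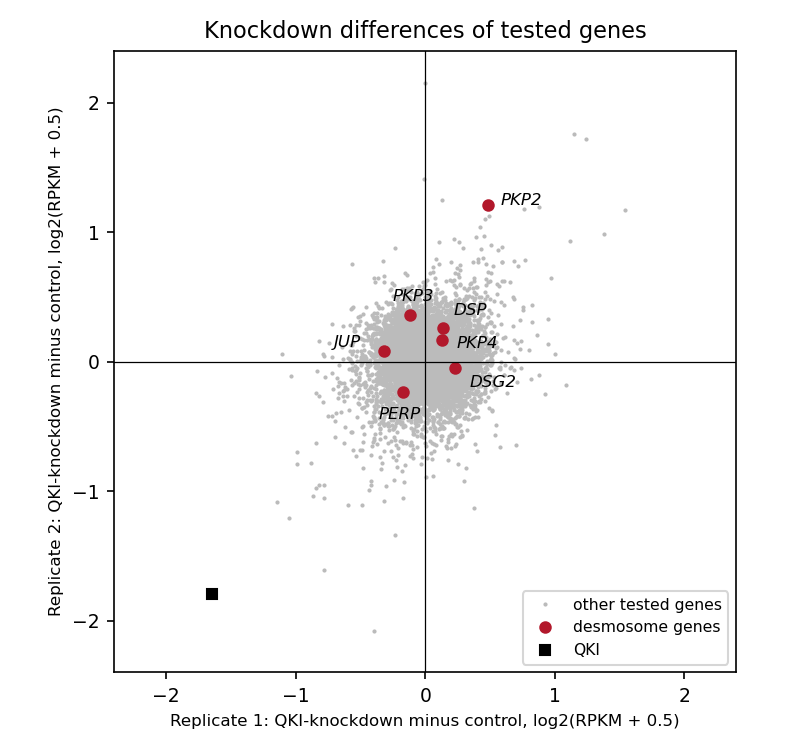
Difference between QKI-knockdown and control on the log2(RPKM + 0.5) scale within replicate 1 (x axis) and replicate 2 (y axis), with each of the 11829 tested genes as a gray point, the 7 tested desmosome genes in red and *QKI* as a black square. *PKP2* lies at 0.48 and 1.21, apart from the other 6, which lie within 0.36 of 0 on both axes.

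Between the libraries of one group most members differed more than between QKI-knockdown and control, as did the tested genes as a whole. Over all tested genes the SD was 0.66 and 0.81 between the libraries of a group, against 0.20 and 0.21 within the replicate numbers. The replicate differences of both groups also went together over these genes (Pearson r = 0.953). The member counts that follow have no counted share over all genes beside them, so no trait of desmosome genes is read from them. *PKP3*, *PKP4*, *DSP* and *JUP*, 4 plaque genes, were lower in replicate 2 than in replicate 1 in both groups. *PKP2*, *DSG2* and *PERP* were higher in replicate 2 in both groups. For *PKP3* the difference of replicate 2 minus replicate 1 was -0.93 in QKI-knockdown cells and -1.41 in control cells on the log2(RPKM + 0.5) scale, the widest among the 7 in control cells. For 5 of the 6 other tested members both within-number differences were smaller than both replicate differences. The exception was *DSG2*, whose difference of 0.23 within replicate 1 exceeded its replicate difference of 0.14 in QKI-knockdown cells. *PKP2* differed by 1.18 between the QKI-knockdown libraries, the widest of the 7 there, and by 0.46 between the control libraries. For replicate differences over 2-fold on the same scale, the share of all tested genes is at hand. They were found in 1 of the 7 tested members in QKI-knockdown cells, where 11.9% of all tested genes had one. In control cells they were found in 2 of 7, where 21.8% had one.

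**Figure D5:**
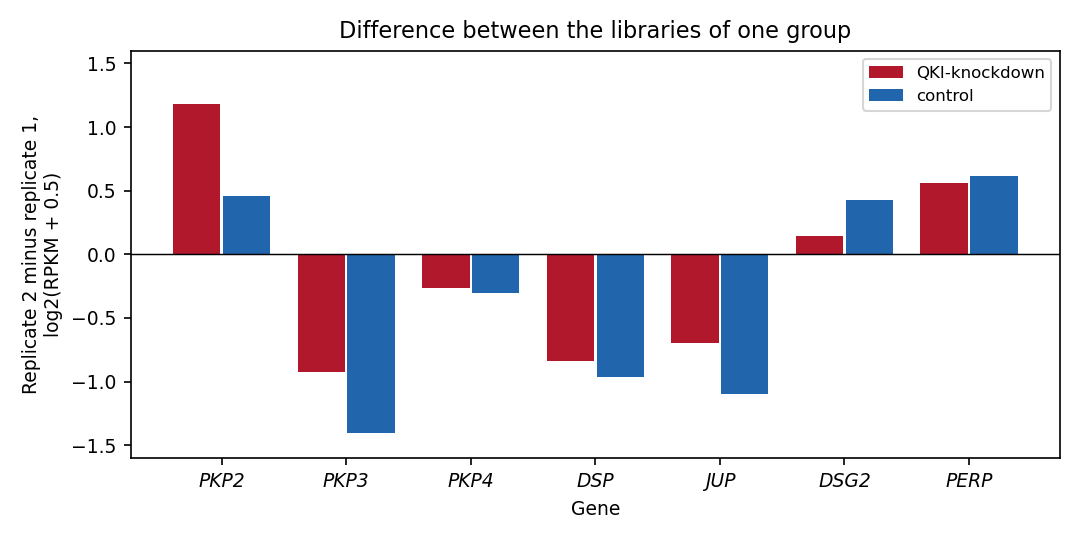
Difference of replicate 2 minus replicate 1 on the log2(RPKM + 0.5) scale (y axis) for each gene (x axis) in QKI-knockdown cells (red bars) and control cells (blue bars). The bars point the same way in both groups for all 7 genes, from -1.41 for *PKP3* in control cells to 1.18 for *PKP2* in QKI-knockdown cells.

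Of 8 further desmosome genes, 5 were listed and 3 were tested. *EVPL*, which encodes envoplakin, a plakin of the cornified envelope, was at 8.44 and 3.81 RPKM in QKI-knockdown cells, against 12.1 and 3.85 RPKM in control cells. *PPL*, which encodes its partner periplakin, was at 1.55 and 4.22 RPKM in QKI-knockdown cells, against 1.52 and 4.78 RPKM in control cells. *CDSN*, which encodes corneodesmosin, was at 0.648 and 0.214 RPKM in QKI-knockdown cells, against 0.821 and 0.485 RPKM in control cells. limma called 0 of the 3 with the replicate number in the fit, where it called 0.854% of all tested genes. Without that number it called 0 of the 3, where it called 0.0%, and 0 had an unadjusted p under 0.05, where 0.11% did. The groups overlapped for each of them. *DSG3*, a desmoglein gene of stratified epithelia, had at most 2 reads in a library. *DSG1*, *DSG4* and *DSC1* were listed in 0 libraries. Since *POLR2A*, which every cell transcribes, was also listed in 0 libraries, no absence is read from this.

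Genes of other junctions were not called either. limma called 0 of 12 tested adherens junction genes, 0 of 8 tight junction genes, 0 of 8 hemidesmosome genes, 0 of 6 intermediate filament genes and 0 of 2 gap junction genes, and at an unadjusted p under 0.05 it also gave 0 in each list. With the replicate number in the fit it again called 0 in each. The median log2 fold changes were 0.07, 0.03, -0.10, 0.09 and -0.05 in this order, beside 0.03 over all tested genes. Within replicate 1 the medians were 0.01, 0.04, -0.11, -0.16 and -0.13, beside 0.02 over all tested genes. Within replicate 2 they were 0.10, 0.04, -0.25, 0.21 and 0.03, beside 0.05. Over all tested genes limma called 0.0%, gave 0.11% at an unadjusted p under 0.05, and called 0.854% with the replicate number. Counts of 0 in lists this short are near those shares, so nothing is read from them. In the adherens junction list, *CTNNA1*, which encodes the alpha-catenin that links cadherins to actin, was at 68.1 and 61.7 RPKM in QKI-knockdown cells, against 67.7 and 64.7 RPKM in control cells. *VCL*, which encodes vinculin, an actin-binding protein of the same junctions, was at 43.9 and 48.8 RPKM in QKI-knockdown cells, against 49.8 and 51.7 RPKM in control cells. Its groups did not overlap, with folds of 0.880 and 0.944 within replicate 1 and 2, but it was not called (limma adjusted p = 1.00, and 0.999 with the replicate number in the fit). *CTNNB1*, which encodes beta-catenin, the closest relative of plakoglobin, was at 42.7 and 38.6 RPKM in QKI-knockdown cells, against 41.1 and 40.5 RPKM in control cells.

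In the tight junction list, *TJP1* encodes a scaffold protein and *CLDN1* a sealing claudin. *TJP1* was at 14.9 and 14.7 RPKM in QKI-knockdown cells, against 15.1 and 15.3 RPKM in control cells, without overlap but with folds of 0.987 and 0.957. *CLDN1* was at 12.6 and 26.2 RPKM in QKI-knockdown cells, against 10.2 and 25.3 RPKM in control cells.

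In the hemidesmosome list, *PLEC* and *DST* encode plakins, relatives of desmoplakin, and *CD151* a tetraspanin that binds laminin-receptor integrins. *PLEC* was at 171.8 and 43.9 RPKM in QKI-knockdown cells, against 194.7 and 41.9 RPKM in control cells. *CD151* was at 115.1 and 70.7 RPKM in QKI-knockdown cells, against 134.0 and 60.0 RPKM in control cells. *DST* was at 17.3 and 12.3 RPKM in QKI-knockdown cells, against 16.6 and 21.1 RPKM in control cells. All 3 had opposite directions within the replicate numbers.

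In the filament list, *VIM*, which encodes vimentin, was at 671.4 and 247.1 RPKM in QKI-knockdown cells, against 958.3 and 273.1 RPKM in control cells. *KRT18*, which encodes the partner of the *KRT8* keratin in simple epithelia, was at 188.8 and 120.3 RPKM in QKI-knockdown cells, against 169.0 and 102.8 RPKM in control cells. The groups overlapped for both. Within replicate 1 and 2 the folds were 0.701 and 0.905 for *VIM*, and 1.12 and 1.17 for *KRT18*. In the gap junction list, *GJC1*, a connexin gene, was at 10.3 and 13.7 RPKM in QKI-knockdown cells, against 9.32 and 13.7 RPKM in control cells. *GJA1*, which encodes connexin 43, a protein with which plakophilin 2 associates in heart muscle, was at 2.79 and 10.3 RPKM in QKI-knockdown cells, against 3.83 and 9.91 RPKM in control cells.

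The genes whose pattern over the 4 libraries was most like that of *PKP2* were no desmosome genes. By Euclidean distance of log2(RPKM + 0.5) centered on each gene's mean, the closest 5 of 11828 were *PPM1E* (distance 0.39), *LEPREL1* (0.44), *COL8A1* (0.44), *WASF3* (0.44) and *TMEM40* (0.45). *PPM1E*, which encodes a protein phosphatase, was at 2.46 and 4.27 RPKM in QKI-knockdown cells, against 1.47 and 2.30 RPKM in control cells. *COL8A1*, which encodes a collagen chain, was at 5.14 and 9.27 RPKM in QKI-knockdown cells, against 4.20 and 4.64 RPKM in control cells. The closest member was *DSG2*, at a distance of 1.05 and rank 3219, and the farthest was *PKP3*, at 2.12 and rank 10982. This distance also contains the difference between the replicate numbers. *DSP*, higher within both numbers as *PKP2* was, had rank 10130, and *PERP*, lower within both, had rank 4552. The ranks therefore do not show whether a member shares the *PKP2* difference between QKI-knockdown and control. The likeness is a description over 4 libraries, since the difference of *PKP2* between the groups was known when it was chosen.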

How the data were processed

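The authors did single-end RNA-Seq on an Illumina GAII in separate runs, at a read length of 50 nt and of 75 nt. They aligned the reads with Bowtie to hg19 and to Ensembl exon junctions, and left out ambiguous alignments. At most 3 mismatches were allowed, and no Bowtie version was given in the sources used here. The deposited values are RPKM, 1 table per library. Neither the labels nor the methods tie a replicate number to a read length or say whether overlapping genes shared reads, and the library kit is not stated to keep strand. The gene spans of *PKP2*, *PKP4*, *DSP*, *DSG2* and *DSC2* overlap non-coding genes, from which their reads may not be separate. A gene missing from a table was given 0.

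Whole reads were recovered for 100% of values (relative tolerance 1e-11). Genes whose mean reached 0.5 RPKM were fitted as log2(RPKM + 0.5) by limma 3.58.1 in R 4.3.3, with trend, two-sided, with Benjamini-Hochberg adjustment over all tested genes and 0.05 as threshold. Alternatives were the pseudocount, the filter, median centring, the replicate number as a block, voom and leaving out each library. Members and lists were chosen with earlier results of these data known. Named genes are the members, *QKI*, the other desmosome genes, up to 3 of the most abundant of each junction list and the 5 nearest to *PKP2*. An item that this rule names is not reported here. Positions and mRNAs are from GENCODE lifted to hg19, 1 canonical mRNA per gene. Counting intervals came from scipy 1.17.1 under Python 3.11.15 (pandas 2.3.3, numpy 2.4.6) and plots from matplotlib 3.10.9.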

Additional observations from a re-analysis of the deposited data

How the results depend on the processing

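Same-numbered libraries deviated together (Pearson r = 0.953 over 11829 genes, which are not independent), but no label gives a shared culture or day for a number. With the replicate block limma called 101 genes, against 0 without it, with the block and median centring 114, and voom with the block 137. None of these calls was among the 6 tested members other than *PKP2*, whose adjusted p lay between 0.897 and 1.00 over all alternatives. With all 4 libraries the 9 alternatives kept the direction of all 7 tested members, with *PKP2* between 0.74 and 1.09. The filter and the replicate block of the limma fit cannot change a log2 fold change here. Median centring moves that of every gene by the same amount. These alternatives are therefore not separate support for the directions. Leaving out 1 library unbalances the replicate numbers. The number of genes called was then 0 to 4, and the median of the 8 members other than *PKP2* -0.20 to 0.15. The log2 fold change was then 0.26 to 1.44 for *PKP2*, -0.59 to 0.82 for *PKP3*, -0.0036 to 0.30 for *PKP4*, -0.28 to 0.68 for *DSP*, -0.67 to 0.43 for *JUP*, -0.12 to 0.30 for *DSG2* and -0.51 to 0.11 for *PERP*. Every direction but that of *PKP2* turned. The *PKP2* direction could not turn, because both its QKI-knockdown libraries were above both control libraries. The set was chosen with the *PKP2* rise known, so nothing is read from the contrast. Depth limits *DSC2* and *DSC3*, with at most 15 reads in a library.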
